A study of Mus musculus with 11 samples.

Results

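The subject is a list of 40 cell cycle genes, read across the cell types of mouse cerebral cortex during postnatal development, adulthood, ageing and neuroinflammation. The list was given by gene symbol, and 39 of its 40 genes were matched by symbol in the count tables of all 11 libraries. Ube2c was not analysed here. Together the 39 genes accounted for 136092 UMIs (unique molecular identifiers, each standing for 1 captured transcript) in 50625 cells, or 0.0616% of all UMIs of these cells. There were 11 S-phase genes, 24 mitosis genes and 4 genes that act in more than one phase.

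The single cells came from myelin-depleted cerebral cortex of C57BL/6 mice and were profiled with the 10x Chromium 3′ v2 assay. Juvenile cells were from postnatal day 10 (4 libraries, tissue of 6 mice pooled), adult cells from 7–11 weeks (3 libraries, 6 mice pooled) and aged cells from 18 months (2 libraries, 3 mice pooled). Cells of experimental autoimmune encephalomyelitis (EAE), a model of multiple sclerosis, were from mice of 7–11 weeks at the peak of disease (2 libraries, 3 mice pooled), immunized with a myelin oligodendrocyte glycoprotein peptide in complete Freund's adjuvant and given pertussis toxin. Myelin depletion removes most neurons and oligodendrocytes, so the few that remain are no fair sample of these cell types. The adult libraries were the reference for the juvenile, aged and EAE libraries alike, so the 3 comparisons share them.

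A cell that commits to division first copies its genome in S phase and then, after a gap phase, separates the copies in mitosis. Transcripts for the replication machinery are induced by E2F factors as a cell leaves G1, whereas most mitosis genes are induced later, in G2 and M, through CHR and CCAAT promoter elements bound by the MuvB complex with B-MYB and FOXM1 and by NF-Y. In the early postnatal brain, blood vessels still sprout and microglia still expand their numbers, whereas both endothelium and microglia of the healthy adult brain turn over slowly.

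The S-phase genes encode the replicative helicase (Mcm2, Mcm3, Mcm4, Mcm5, Mcm6 and Mcm7), the sliding clamp of DNA polymerases (Pcna) and enzymes that make the building blocks of DNA (Rrm1, Rrm2, Tyms and Tk1). The genes of more than one phase encode the kinase Cdk1 and its partner cyclin A2 (Ccna2), topoisomerase II alpha (Top2a), which untangles DNA, and Ki-67 (Mki67), which coats mitotic chromosomes. The mitosis genes encode B-type cyclins (Ccnb1, Ccnb2), mitotic kinases (Plk1, Aurka, Aurkb, Bub1, Pbk), the checkpoint protein Bub1b and the activator of the anaphase-promoting complex Cdc20. Others encode partners of Aurkb at the centromere (Birc5, Cdca8), the centromeric histone Cenpa, kinetochore proteins (Cenpe, Cenpf, Spc25, Ska1) and the mitotic entry factor Cdca3. The remaining ones encode spindle motors (Kif11, Kif20a, Kif23) and microtubule-associated proteins of the spindle (Prc1, Tpx2, Nusap1, Hmmr).

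Promoter sequences of 4 members are shown as examples of an S-phase gene, a mitosis gene and a gene of more than one phase, and of Kif23, which is described on its own below. Each is the RefSeq window (GRCm38.p6) from 250 bases before to 50 bases after the transcription start, written 5′ to 3′ on the strand of the gene. Capitals mark the letters searched, on either strand, namely CHR (TTTGAA or TTCGAA), the CCAAT box (CCAAT, read ATTGG on the other strand) and an E2F word (TTTCCCGC, TTTGGCGC, TTTCGCGC or TTTGCCGC). Mcm6 lies at chr1:128359656-128359955 (minus strand), Cenpa at chr5:30666636-30666935 (plus strand), Cdk1 at chr10:69352863-69353162 (minus strand) and Kif23 at chr9:61946750-61947049 (minus strand).
Mcm6: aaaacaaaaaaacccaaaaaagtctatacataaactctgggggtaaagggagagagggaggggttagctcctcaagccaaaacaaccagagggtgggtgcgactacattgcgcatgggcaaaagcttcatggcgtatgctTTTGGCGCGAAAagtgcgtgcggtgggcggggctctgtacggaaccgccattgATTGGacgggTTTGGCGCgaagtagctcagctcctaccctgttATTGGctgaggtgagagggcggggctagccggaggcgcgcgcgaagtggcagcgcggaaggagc
Cenpa: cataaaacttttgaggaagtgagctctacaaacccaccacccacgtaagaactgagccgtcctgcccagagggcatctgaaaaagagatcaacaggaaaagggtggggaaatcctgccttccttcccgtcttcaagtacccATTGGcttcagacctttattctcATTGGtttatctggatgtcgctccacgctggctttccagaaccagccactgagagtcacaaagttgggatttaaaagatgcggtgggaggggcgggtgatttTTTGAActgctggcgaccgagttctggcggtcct
Cdk1: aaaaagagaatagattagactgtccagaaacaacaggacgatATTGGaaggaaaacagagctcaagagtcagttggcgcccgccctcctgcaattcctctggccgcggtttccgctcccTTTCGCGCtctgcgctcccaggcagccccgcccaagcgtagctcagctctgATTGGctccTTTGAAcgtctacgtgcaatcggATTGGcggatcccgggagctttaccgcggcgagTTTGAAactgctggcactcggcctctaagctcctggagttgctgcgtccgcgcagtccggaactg
Kif23: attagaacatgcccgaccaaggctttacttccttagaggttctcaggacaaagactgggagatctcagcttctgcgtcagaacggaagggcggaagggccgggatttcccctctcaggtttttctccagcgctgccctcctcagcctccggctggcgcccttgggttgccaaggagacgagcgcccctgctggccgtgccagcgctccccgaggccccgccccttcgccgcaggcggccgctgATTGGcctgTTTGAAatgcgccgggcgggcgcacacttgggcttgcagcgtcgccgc
In the Mcm6 window 2 of the 3 E2F words overlap each other, and no CHR word is present. The Cenpa window holds 1 CHR and 2 CCAAT words, the Cdk1 window 2 CHR, 3 CCAAT and 1 E2F words, and the Kif23 window 1 CHR and 1 CCAAT word. Of the members, 32 had at least 1 window used here, and they had 34 windows. CHR words were present in 16 of 20 windows of mitosis genes, in 18.2% of 11 windows of S-phase genes and in 19.2% of all 32851 windows. E2F words were present in 36.4% of the S-phase windows, in none of the mitosis windows and in 2.26% of all windows, and the CCAAT box in 18 of 20 mitosis windows, 81.8% of the S-phase windows and 37.4% of all windows. All 3 windows of genes of more than one phase held CHR and CCAAT words, and 1 held an E2F word. A match of letters is a description and does not show binding. Tpx2, Pbk, Aurkb, Ccna2 and Mcm4 had no entry, and Kif20a and Ska1 were not used.

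Kept cells per library ranged from 2552 to 8322 and their median depth from 2420 to 4200 UMIs. Several libraries of a condition were nearly alike. Counts of ECs were compared between 2 libraries and set against random divisions of their joined cells. The difference between Juvenile 1 and 2, Juvenile 3 and 4, Adult 2 and 3, Aged 1 and 2 or EAE 1 and 2 was 1.19 to 1.72 times that of such divisions. In microglia it was 1.02 to 1.21 times. In ECs it was 7.88 to 10.0 times as large across the other juvenile pairs, and Adult 1 stood apart from the other adult libraries by 16.1 and 16.7 times. The labels do not say that libraries of a condition came from separate animals, so p-values measure the spread between libraries, which may be technical. No pair of libraries shared more than 1.53% of the barcodes of the smaller one. Cell types were named from marker genes after clustering without 195 cell cycle genes, the members among them, and 0.579% of kept cells stayed unnamed. Clusters rich in member UMIs that also scored for a further cell type were named cell by cell. The members thus had a part in which naming rule a cluster was given.

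To compare cell types of unequal depth, every cell with at least 1500 UMIs was thinned to 1500 UMIs, and the share of cells with at least 4 UMIs of the list was taken. In all, 1598 of 45788 such cells (3.49%) reached this limit, and 4837 shallower cells were left out. These cells are called cycling cells below only as a short name for this limit. Of 13185 juvenile cells 1152 reached it, against 35 of 9602 adult, 66 of 8426 aged and 345 of 14575 EAE cells. Microglia made up 47.6% of the cycling cells of juvenile libraries and ECs 20.5%, whereas T cells made up 162 and microglia 102 of the 345 of EAE libraries. In some groups of cells that should not divide no cell reached the limit, but 8 of 653 juvenile ependymal cells did. None of 71 juvenile cells of a mature neuron cluster (median depth 2676 UMIs) and none of 2622 adult choroid plexus epithelial cells (median depth 4717 UMIs) reached it, which allows shares of up to 4.22% and 0.114%.

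Endothelial cells (ECs) of juvenile cortex had many cycling cells. In the 4 juvenile libraries 12.4% of 541, 9.38% of 512, 6.82% of 1027 and 5.06% of 1008 ECs reached the limit, a mean of 8.41% ± 3.19 (SD, n = 4). In adult libraries it was reached by 0 of 781, 1 of 1939 and 2 of 2011 ECs, in aged libraries by 3 of 2497 and 2 of 2495 and in EAE libraries by 1 of 3184 and 1 of 3092. Every juvenile library lay above every other library, and Juvenile 1 and 2 (median depth 7227 and 8268 UMIs per EC) lay above Juvenile 3 and 4 (5703 and 5018 UMIs). The median depth of ECs was 2240 to 3673 UMIs in the other libraries. Without thinning the shares were 17.7% to 43.1% in juvenile, 2.24% to 3.31% in adult, 1.52% to 1.96% in aged and 1.38% to 1.72% in EAE libraries, so depth moved the level of the share. Juvenile ECs were the deepest, so the shares without thinning cannot show whether depth sets the order of libraries. The order at equal depth is that of the thinned shares. Pooled over libraries, 7.64% of juvenile ECs (95% Clopper-Pearson interval 6.73 to 8.64) and 0.0634% of adult ECs (0.0131 to 0.185) were cycling. Intervals and limits from a count of 0 cover counting error only.

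Microglia (Micro) had cycling cells mostly in 2 conditions, juvenile and EAE. In juvenile libraries 18.4% of 1030, 15.7% of 944, 11.8% of 900 and 12.4% of 847 microglia reached the limit, a mean of 14.6% ± 3.06 (SD, n = 4). None of 302, 146 and 176 adult microglia did, which over the 624 cells allows a share of up to 0.481%. In EAE the share was 4.26% of 1196 and 4.16% of 1226 microglia, a mean of 4.21% ± 0.0738 (SD, n = 2), and in aged libraries it was reached by 3 of 524 and 1 of 492. The EAE libraries lay below every juvenile and above every adult and aged library. Of the 102 cycling EAE microglia 88 lay in a cluster whose cells were named microglia or monocyte-derived 1 by 1, so their name is less certain. None of its first 10 genes is a microglia marker, which holds for the main EAE microglia cluster too. Without that cluster of 88 cycling cells the mean EAE share was 0.616%. Fewer adult microglia were deep enough to enter, 79.1%, 53.7% and 58.9% of them in the 3 libraries against 98.3% to 99.8% in juvenile and 84.8% and 86.3% in EAE libraries.

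Perivascular macrophages (PVMs), mural cells (pericytes and smooth muscle cells of the vessel wall), astrocytes and fibroblast-like cells (Fibro) had cycling cells in juvenile libraries as well. The mean over 4 libraries was 5.71% ± 1.82 (SD) in PVMs, 9.03% ± 0.722 in mural cells, 7.23% ± 1.06 in astrocytes and 4.35% ± 1.57 in Fibro. The values of PVMs and astrocytes were carried in large part by cells that clustered apart from the rest of their type. All 20 juvenile PVMs in the cycling microglia cluster were cycling, against 13 of 564 (2.30%) in the main PVM cluster. These 20 cells were named PVM cell by cell, in a cluster that scored higher for microglia than for PVMs. Their name, and with it the PVM share of 5.71%, is uncertain. Of juvenile astrocytes 36 of 52 (69.2%) were cycling in the cluster shared with neuron-like cells and OPCs, against 23 of 780 (2.95%) in the main astrocyte cluster. The leading genes of the shared cluster are of the neuronal lineage and none of its first 10 is an astrocyte marker, so the name of these 52 cells, and with it the share of 7.23%, is uncertain. Cycling mural cells lay in the main cluster of juvenile mural cells (48 of 523). Of adult cells, 1 of 541 PVMs, 0 of 250 mural cells and 1 of 115 astrocytes reached the limit. In EAE 5 of 530 PVMs, 0 of 104 mural cells and 2 of 61 astrocytes did, and in aged libraries 3 of 508, 0 of 99 and 0 of 177. For mural cells a count of 0 allows shares of up to 1.20% in adult, 3.03% in aged and 2.88% in EAE libraries. Choroid plexus epithelium had few such cells even at postnatal day 10, 12 of 2041, and none of 803 aged and 886 EAE cells. Among ependymal cells 8 of 653 juvenile cells reached the limit. Of these few cells, 66.7% of the 6 choroid plexus cells of Juvenile 4, 66.7% of the 3 ependymal cells of Juvenile 1 and 1 of the 2 of Juvenile 3 were called doublets.

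High shares were also found among juvenile cells named neuron-like or, by their markers, oligodendrocyte precursors (OPCs). The juvenile cells named OPC were told apart by a marker score per cell within 1 cluster, whose leading genes, such as Tubb3, Dlx1 and Dlx2, are of the neuronal lineage, so the name is uncertain. Of them 34 of 82 were cycling, with 7 of 21, 8 of 20 and 14 of 24 in the 3 libraries that had at least 20 of them. Of cells named neuron-like, 29.2%, 19.4%, 33.3% and 41.4% were cycling in the 4 juvenile libraries, against 7 of 76 in adult and 12 of 55 in EAE libraries. They fell into clusters of opposite kind, since in the one that also holds astrocyte-like cells 74 of 153 juvenile neuron-like cells reached the limit, and in the mature neuron cluster none of 71.

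Among leukocytes, cycling T cells were most numerous in EAE, with 94 of 820 and 68 of 770 T cells in the 2 libraries. Over all libraries of a condition it was 162 of 1590 in EAE, 11 of 111 in juvenile, 7 of 284 in aged and 1 of 96 in adult T cells. The 2 juvenile libraries with at least 20 T cells had 4 of 47 and 1 of 43. The other cycling juvenile T cells lay in libraries with fewer than 20 T cells each, so the juvenile and EAE shares were not told apart. Natural killer cells had 10 of 131 in EAE, 4 of 19 in juvenile, 1 of 32 in aged and 2 of 39 in adult libraries. Monocyte-derived cells (MonoMac), far more numerous in EAE, had a low share there (10 of 819 and 23 of 758), against 9 of 78 in aged, 3 of 42 in juvenile and 1 of 24 in adult libraries. Neutrophil-like cells of the aged libraries had 9 of 37 and 2 of 42 cycling cells, against 5 of 124 and 1 of 122 in EAE. Erythroid cells had 16 of 68 in aged, 10 of 36 in juvenile and 4 of 61 in adult libraries, and B-lineage cells 22 of 90 in juvenile, 12 of 151 in adult, 6 of 93 in aged and 1 of 57 in EAE libraries. Most of these counts rest on few cells, and the interval of the aged neutrophil-like share, for example, spans 7.16% to 23.6%.

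**Figure D1:**
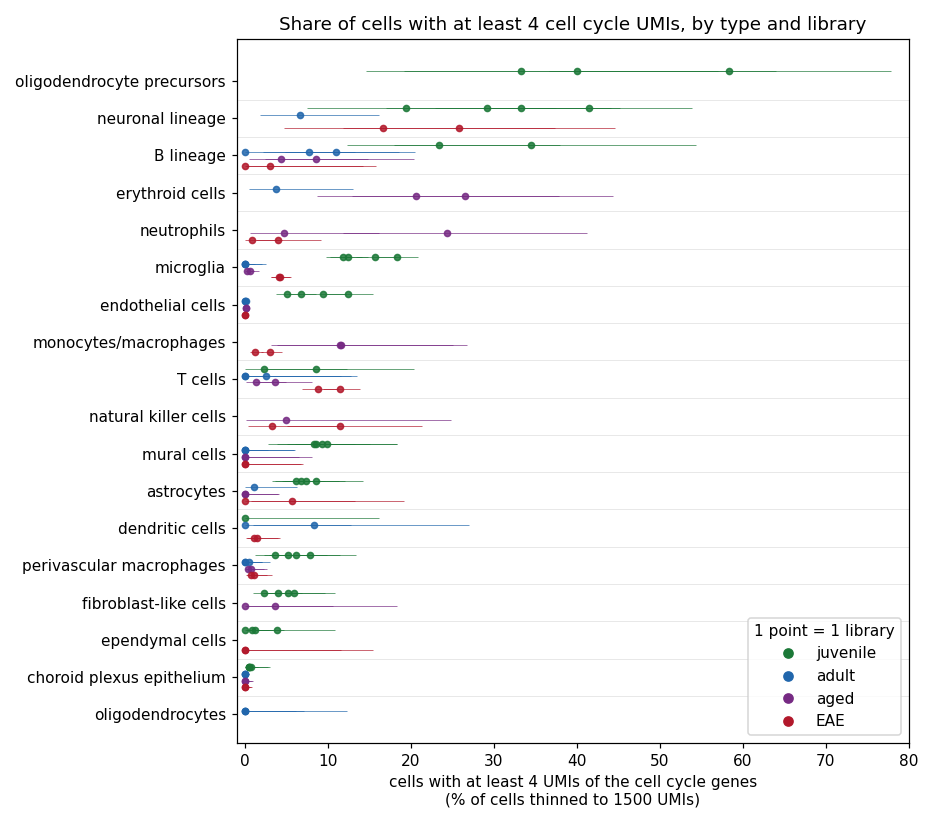
Share of cells (percent, x axis) with at least 4 UMIs of the 39 members after thinning to 1500 UMIs, by cell type (rows) and condition (colours), with 1 point per library and its exact 95% interval as a line. Juvenile ECs (5.06% to 12.4%) and microglia (11.8% to 18.4%) lie above all other libraries of these types, EAE microglia lie in between at 4.16% and 4.26%. Libraries with fewer than 20 such cells of a type are not drawn.

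Many but not all cycling cells gathered in a few clusters, although the members had no part in the clustering. Those of juvenile mural cells (48 of 523) and most of juvenile Fibro (34 of 807) lay in the main juvenile cluster of their type. Of juvenile ECs, 177 of 200 in 1 cluster (88.5%) were cycling, with 51 of 60, 32 of 40, 53 of 56 and 41 of 44 in the 4 libraries. It was 33 of 2368 (1.39%) in the largest cluster of juvenile ECs and 24 of 462 (5.2%) in the next largest. Of juvenile microglia, 271 of 273 in 1 cluster were cycling, which also took in 20 PVMs that were all cycling, and 241 of 2734 (8.82%) in the main cluster. In EAE 88 of 146 microglia of another cluster (60.3%) were cycling, against 13 of 2260 (0.575%) in the main EAE cluster. That EAE cluster holds cells named MonoMac too, 11 of 22 of them cycling. Without it the share of cycling EAE microglia was 0.616% in place of 4.21% (a setting chosen after seeing the data). In EAE T cells 114 of 159 cells of 1 cluster (71.7%) were cycling, and 13.2% of this cluster was called doublets, against 1.62% of all kept cells. The cells of this cluster were named T cell, MonoMac or natural killer cell 1 by 1, so their name is less certain. Cluster membership was set by other genes of the same cells, so these shares are a description.

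S-phase and mitosis genes were then set against each other as the log2 ratio of summed UMIs of the 11 S-phase genes over those of the 24 mitosis genes, in all cells of a type. In juvenile ECs, mitosis UMIs were in excess, with S-phase and mitosis UMIs of 2619 and 3778, 2074 and 2576, 2921 and 3472, and 2263 and 2633 in the 4 libraries. The log2 ratio was −0.33 ± 0.14 (SD, n = 4). In adult ECs S-phase UMIs exceeded mitosis UMIs (580 and 152, 1521 and 334, 1547 and 332), with a log2 ratio of 2.11 ± 0.16 (SD, n = 3), and the aged (2.38 and 2.40) and EAE libraries (1.27 and 1.43) were on the same side. Juvenile ECs thus did not overlap with those of the other conditions. S-phase genes summed to 367–521 CPM (the UMIs of the genes scaled to the total of the cell type in that library) in juvenile and 163–204 CPM in adult ECs, and mitosis genes to 427–752 and 42.8–44.3 CPM, so the ratio moved mostly with the mitosis genes. The adult ratio depended on Pcna and the Mcm genes, without which it was −0.30.

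In microglia the juvenile libraries had log2 ratios of −0.57, −0.62, −0.33 and −0.44, and the EAE libraries −0.49 and −0.11, which overlaps with the juvenile range at 1 library. Adult 1 had a ratio of 2.65, from 257 S-phase and 41 mitosis UMIs, and the other adult libraries had too few mitosis UMIs for a ratio. The aged libraries differed from each other, with 0.69 (319 and 198 UMIs) and 2.38 (302 and 58 UMIs). Mitosis genes summed to 745–1062 CPM in juvenile, 18.1–31.5 CPM in adult, 34.8–120 CPM in aged and 249–303 CPM in EAE microglia.

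Other cell types followed their cycling shares in part. The ratio was below 0 in each juvenile library of PVMs and Fibro, in 3 of 4 of mural cells, and averaged −0.36 ± 0.38 (SD, n = 4) in astrocytes, −1.39 ± 0.30 in neuron-like cells and −1.30 ± 0.87 in OPCs. EAE T cells had ratios of −0.72 and −0.57, against 0.43 and 0.66 in aged T cells. Choroid plexus epithelium had 1.89, 2.31 and 2.32 in adult and −0.15, 0.66, 0.87 and 0.40 in juvenile libraries. Neutrophil-like cells were far on the mitosis side, with −2.27 and −1.27 in aged and −1.45 and −1.23 in EAE libraries.

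Within cycling cells alone, the UMIs of the large types were divided between the sets as follows. The 236 cycling ECs of juvenile libraries had 28.4% of their thinned member UMIs in S-phase and 56.0% in mitosis genes, and the 548 juvenile microglia had 27.4% and 56.7%. The 102 cycling microglia of EAE had 24.6% and 56.4%, and the 162 cycling T cells of EAE had 24.7% and 57.0%. S-phase UMIs outnumbered mitosis UMIs in 38.7% of cycling juvenile microglia (95% interval 34.6 to 42.9), 32.6% of juvenile ECs (26.7 to 39.0), 27.5% of EAE microglia (19.1 to 37.2) and 20.4% of EAE T cells (14.5 to 27.4). Cycling neutrophil-like cells of the aged libraries stood at the other end, with S-phase UMIs at 4.35% and mitosis UMIs at 69.6%, and none of 11 cells with more S-phase than mitosis UMIs (up to 28.5%). These intervals pool the cells of all libraries, and the cells were chosen by UMIs of the same genes, so they are a description.

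**Figure D2:**
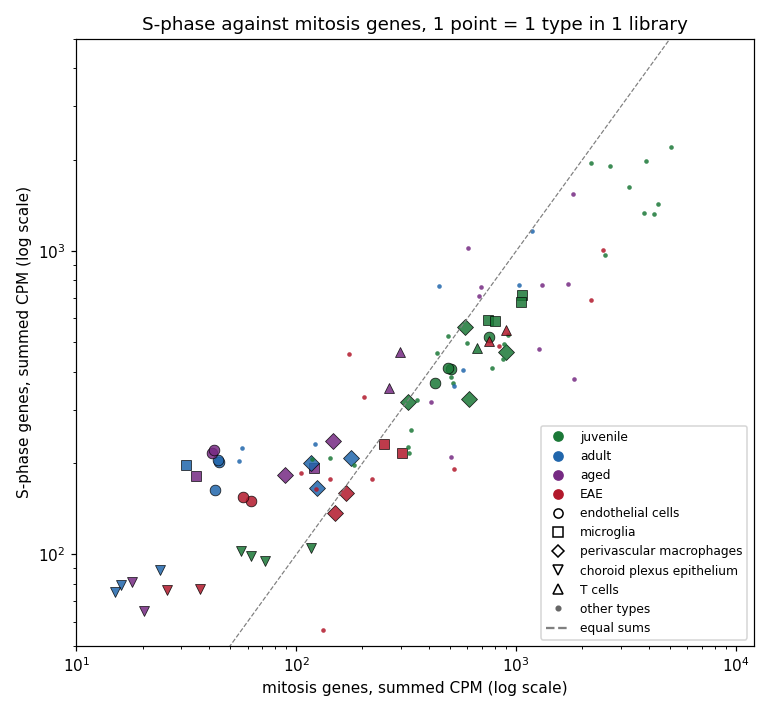
Summed CPM of the S-phase genes (y axis, log scale) against that of the mitosis genes (x axis, log scale), with 1 point per cell type and library that had at least 20 UMIs of each set and a dashed line where both sums are equal. Juvenile ECs and microglia and EAE microglia lie on the mitosis side of the line, whereas adult and aged ECs lie on the S-phase side, with mitosis sums of 42.8 to 44.3 CPM in adult libraries.

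The share of transcripts that lay in cycling cells varied among the members. For each gene this was read as the share of its thinned UMIs in cells with at least 4 UMIs of the other members, over all cell types. The median was 23.1% for S-phase, 76.1% for mitosis and 82.9% for genes of more than one phase. As 24 of the 39 genes that choose these cells are mitosis genes, the contrast of the sets follows in part from the choice. The Mcm genes ranged from 16.8% (Mcm6) to 39.2% (Mcm5), and Pcna, which also serves DNA repair, was lowest at 14.2%. Rrm2, the ribonucleotide reductase subunit made in S phase, was at 77.9%, against 26.0% for its partner Rrm1. Tk1 was at 55.0% and Tyms at 34.5%.

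Among the mitosis genes Hmmr (89.2%) and Pbk (89.0%) were the most confined, and Kif20a (26.7%), Kif23 (36.5%), Cenpa (50.9%) and Cenpf (60.0%) the least. The value of Kif20a rests on 30 thinned UMIs, and this gene had 90 UMIs in all kept cells and entered no test. Of the genes of more than one phase, Mki67, Ccna2 and Top2a were at 82.7% to 83.1%, and Cdk1 at 57.3%. The members most abundant over all kept cells were not the most confined ones, since Pcna held 10.2% of all member UMIs and Cenpa 5.58%.

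**Figure D3:**
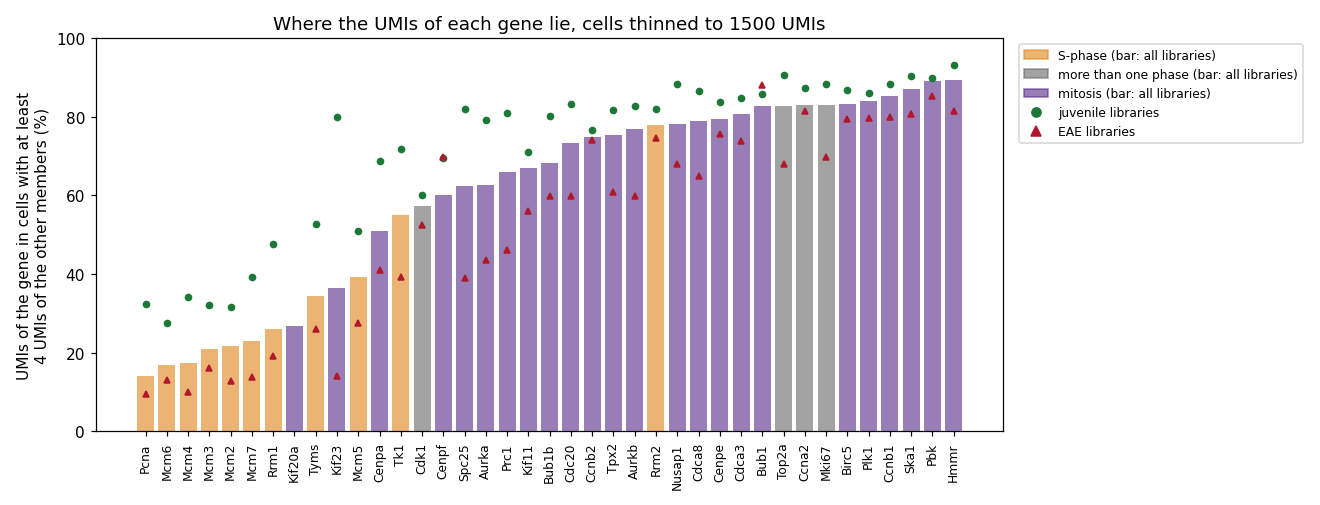
Share of the thinned UMIs of each member (percent, y axis) that lay in cells with at least 4 UMIs of the other members, as bars over all libraries and cell types coloured by gene set and as points for juvenile and EAE libraries. Most S-phase genes lie between 14.2% (Pcna) and 39.2% (Mcm5), with Tk1 and Rrm2 above, and of the mitosis genes Kif20a, Kif23 and Cenpa lie below Cdk1 (57.3%).

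Levels of the members were compared between conditions by summing UMIs per library and cell type (edgeR quasi-likelihood test over all genes, Benjamini-Hochberg adjusted p under 0.05). In juvenile against adult ECs 37 of the 38 members tested were higher and none lower, where 23.8% of all 13810 genes tested were higher. The sets rose as 23 of 23 mitosis genes, 4 of 4 genes of more than one phase and 10 of 11 S-phase genes, with median log2 fold changes of 4.55, 5.08 and 1.24, against −0.04 over all genes tested. Juvenile and adult ECs shared no cluster with at least 20 cells of each, and of 3721 juvenile microglia 2734 lay in a cluster that held 67 of 624 adult ones, so the classes compared are made up of different clusters. Likewise most EAE microglia (2260 and 146 of 2422, in 2 clusters) and most EAE ECs (2632, 1778 and 436 of 6276, in 3 clusters) lay in clusters with fewer than 20 adult cells of the type. Summed RNA of a cell type cannot tell more cycling cells from more transcript per cell.

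Cdk1 (chr10:69335146-69352938), the kinase that drives entry into mitosis, had 82.2, 63.7, 75.1 and 62.0 CPM in juvenile, 2.54, 2.92 and 2.64 CPM in adult, 0.764 and 1.37 CPM in aged and 1.70 and 1.64 CPM in EAE ECs. Every juvenile library was far above the rest (log2 fold change against adult libraries 4.77 ± 0.16, SE, adjusted p = 9.81e-11, edgeR). The aged and the EAE libraries were all below every adult one. Top2a (chr11:98992943-99024189) had 62.1, 48.1, 42.6 and 33.7 CPM in juvenile and 0.564, 1.33 and 1.85 CPM in adult ECs (5.13 ± 0.27, adjusted p = 7.53e-09, edgeR). Rrm2 (chr12:24708241-24714146) had 60.3, 45.1, 43.0 and 32.1 CPM and 1.97, 1.86 and 2.51 CPM (4.46 ± 0.24, adjusted p = 6.29e-09, edgeR). In both genes the juvenile libraries did not overlap with the adult ones, and Juvenile 1 was highest. Of all 13810 genes tested in ECs, 3327 lay above every adult library in juvenile and 3368 in aged libraries, and 3321 and 3004 lay below.

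The most abundant mitosis genes rose in the same libraries, though from higher adult levels in the case of Cenpa (chr5:30666777-30674830). Cenpa had 84.6, 53.0, 47.1 and 45.7 CPM in juvenile and 6.76, 12.5 and 12.02 CPM in adult ECs (log2 fold change 2.46 ± 0.24). Birc5 (chr11:117849251-117855743), which inhibits cell death and guides chromosome segregation, had 84.6, 55.8, 62.2 and 49.6 CPM and 3.66, 0.133 and 0.661 CPM (5.97 ± 0.47), so that Adult 1 stood above the other adult libraries. Cdc20 (chr4:118432901-118437352) had 75.8, 37.8, 37.9 and 34.2 CPM and 0.845, 3.98 and 4.23 CPM (3.83 ± 0.40), and here Adult 1 stood below. The other members with the smallest adjusted p, Cdca8, Nusap1, Cdca3, Tpx2 and Tk1, had 15.1 to 41.4 CPM in juvenile and 0.265 to 4.38 CPM in adult libraries.

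Pcna (chr2:132249162-132253314) was the S-phase gene that did not pass the test, with 92.9, 81.4, 72.0 and 59.6 CPM in juvenile and 56.9, 71.4 and 70.2 CPM in adult ECs (log2 fold change 0.27 ± 0.12, adjusted p = 0.087, edgeR). The groups overlap at Juvenile 4. Mcm6 (chr1:128331590-128359664) passed with a smaller change than the mitosis genes, from 27.3, 28.9 and 28.7 CPM in adult to 55.9, 48.3, 52.7 and 55.7 CPM in juvenile libraries (0.99 ± 0.09).

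In juvenile microglia 37 of 38 members tested were higher than in adult libraries and none lower, against 12.4% of all genes tested higher. The sets counted 23 of 23, 4 of 4 and 10 of 11, with median log2 fold changes of 5.06 (mitosis), 5.85 (more than one phase) and 1.96 (S phase), against −0.02 over all genes tested. With genes absent from adult microglia at their lower bound, the first 2 medians were 4.63 and 4.97. Cdk1 had 96.5, 110.8, 92.4 and 81.0 CPM in juvenile, 3.84, 3.29 and 2.88 CPM in adult, 6.06 and 7.21 CPM in aged and 24.4 and 18.1 CPM in EAE microglia. Rrm2 had 86.8, 82.2, 71.2 and 61.2 CPM, then 3.07, 1.64 and 1.44 CPM, 3.03 and 1.80 CPM, and 15.5 and 14.2 CPM in the same order of conditions. Both genes ran from juvenile through EAE to adult without overlap between these 3 conditions. Of all 11200 genes tested, 1889 lay above every adult library in juvenile and 2896 in EAE microglia. The juvenile log2 fold changes were 4.73 ± 0.26 and 4.97 ± 0.30.

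Many mitosis genes were close to absent from adult microglia, so their folds are given from counts. Top2a had 112.8, 113.2, 93.1 and 69.1 CPM in juvenile and 35.7 and 34.1 CPM in EAE microglia, against 2 UMIs in all adult microglia, a ratio of 130 (counting interval 35.9 to 1070) for juvenile and 45.4 (12.5 to 377) for EAE libraries. Mki67 had no UMI in adult microglia and was at least 34.2-fold higher in juvenile and at least 9.73-fold higher in EAE libraries, with the adult level set at 3 counts over the 3 libraries. Ccnb2 and Pbk had 1 adult UMI each and 47.1 to 73.1 CPM in juvenile libraries. Mcm2 and Mcm5, subunits of the replicative helicase, had 43.4 to 64.9 CPM in juvenile and 1.64 to 7.20 CPM in adult libraries, with log2 fold changes of 3.79 ± 0.32 and 3.04 ± 0.25. Pcna did not pass in microglia either (0.27 ± 0.21).

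In EAE against adult microglia 32 of 38 members tested were higher and none lower, against 14.0% of all genes tested higher. All but 1 of 23 mitosis genes and all 4 genes of more than one phase were called, but 6 of 11 S-phase genes, with median log2 fold changes of 3.75, 4.26 and 0.81, against −0.02 over all genes tested (3.11 and 3.10 for the first 2 with absent genes at their bound). Cdk1 and Cdca8 rose by 2.79 ± 0.34 and 2.81 ± 0.38 and Rrm2 by 2.85 ± 0.40. Hmmr, absent from adult microglia, was at least 8.26-fold higher in EAE, with 10.9 and 8.21 CPM. Plk1, Ccnb2 and Cdca3 had 1, 1 and 3 adult UMIs, and 8.01 to 18.7 CPM in EAE libraries. Mcm6 (12.4 and 17.3 CPM against 6.91, 9.86 and 14.4 CPM in adult microglia) was called in 10 of 20 alternative settings, and its groups overlap.

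**Figure D4:**
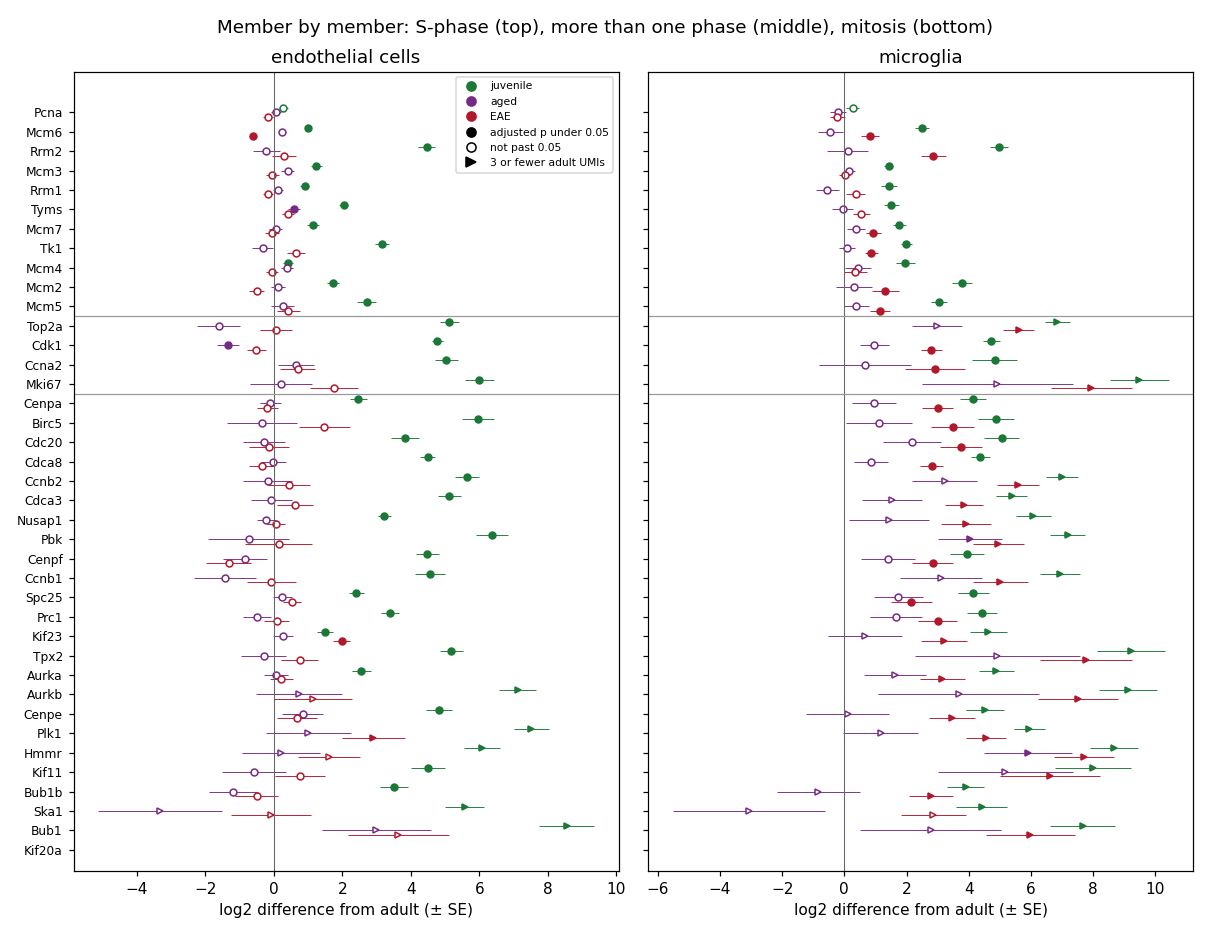
Log2 fold change against adult libraries (x axis) with its SE for each member tested in ECs and microglia, for juvenile, aged and EAE libraries, with filled symbols for an adjusted p under 0.05 and triangles for genes of at most 3 adult UMIs, whose fitted value depends on the method. Juvenile values lie to the right of 0 in both cell types, EAE values do so in microglia except for Pcna, and aged values lie on both sides of 0.

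Juvenile libraries had higher levels of members in the other cell types tested as well. In PVMs 25 of 31 members tested were higher, against 6.05% of all genes tested, in choroid plexus epithelium 23 of 33 (29.8%), in mural cells 15 of 18 (14.5%) and in astrocytes 16 of 24 (5.9%). No member was called lower in any of them. The median log2 fold change of the members tested was 3.16 in PVMs, 1.38 in choroid plexus epithelium, 3.73 in mural cells and 2.52 in astrocytes, with absent genes at their bound, against −0.01, −0.01, −0.04 and 0.01 over all genes tested. Of the S-phase and mitosis genes tested, 7 of 11 and 14 of 16 were called in PVMs, 3 of 11 and 16 of 18 in choroid plexus epithelium, 2 of 5 and 10 of 10 in mural cells, and 3 of 10 and 10 of 11 in astrocytes. A difference between the sets was not tested. Mural cells of the conditions lay mostly in different clusters, with 523 of 526 juvenile cells in one led by Acta2, Tagln and Myl9, genes of smooth muscle, and 190 of 250 adult cells in one led by Vtn and Kcnj8, genes of pericytes. The first 10 genes of the juvenile cluster also held Rgs5, and Higd1b and Ndufa4l2 were among those of both clusters. The juvenile cluster was thus not shown to be smooth muscle alone. Juvenile and adult choroid plexus epithelium shared no cluster with at least 20 cells of each. Most PVMs and astrocytes of both conditions lay in the same one, but many of their mitosis UMIs did not. The 52 juvenile astrocytes of uncertain name held 362 thinned mitosis UMIs, against 184 in 780 cells of the main cluster. The 20 juvenile PVMs of the cycling microglia cluster, also of uncertain name, held 214, against 196 in 564 cells of the main one. Calls without these cells were not tested. The mural count ran from 5 to 19 when single libraries were left out, lowest without Juvenile 2 and highest without Aged 1, and the astrocyte count from 1 to 21, lowest without Adult 1 and highest without EAE 1. Without Juvenile 2 only 8 members were tested in mural cells, whereas without Adult 1 all 24 were still tested in astrocytes. Fibro had no member that passed the filter on low counts.

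Cdk1 was called in PVMs and mural cells. It had 91.0, 108.6, 50.5 and 104.4 CPM in juvenile and 12.3, 14.2 and 17.1 CPM in adult PVMs (log2 fold change 2.49 ± 0.27) and 56.1, 99.8, 63.4 and 104.0 CPM against 4.35, 4.70 and 4.62 CPM in mural cells (3.98 ± 0.51). Groups did not overlap in either. Of all genes tested, 861 of 8077 in juvenile PVMs and 956 of 5285 in juvenile mural cells lay above every adult library. In choroid plexus epithelium the levels were lower, with Cdk1 at 23.9, 15.7, 21.0 and 14.9 CPM in juvenile and 8.48, 6.38 and 6.77 CPM in adult libraries (1.16 ± 0.20) and Tk1 at 5.41 to 8.64 CPM against 1.13 to 1.74 CPM (2.21 ± 0.29). Pbk, a kinase active in mitosis, was absent from adult PVMs, mural cells and astrocytes and was at least 21.8-fold, 15.3-fold and 10.6-fold higher in the juvenile libraries of these types. Adult astrocytes were few, with 118, 20 and 18 kept cells in the 3 libraries that entered the sums.

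In EAE few members were called outside microglia. In ECs 2 of 38 were higher and 1 lower, where 33.0% of all genes tested were called in either direction. In PVMs it was 4 and 1 of 31 (21.3% of all genes called), in choroid plexus epithelium 2 and 3 of 33 (37.9%), and in mural cells and astrocytes none of 18 and 24 (3.27% and 2.26%). The median of the members was 0.15 in ECs, 1.04 in PVMs and 0.09 in choroid plexus epithelium on the log2 scale, against 0.01, −0.02 and −0.04 over all genes tested. These shares were below the background in ECs, PVMs and choroid plexus epithelium. At an unadjusted p under 0.05 edgeR had 15 of 31 members in PVMs, and without a filter on low counts 12 of 39 were called there. In mural cells and astrocytes 0 and 4 members were under that p, and DESeq2 called 0 in both. The EC count rose to 6 without Adult 1, and that of choroid plexus epithelium ran from 2 (without EAE 2) to 6 (without Juvenile 1).

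Kif23 (chr9:61915905-61946774), a kinesin of the central spindle needed to finish cell division, rose in EAE ECs although cycling ECs were nearly absent there. It had 23.3 and 24.3 CPM in EAE, 5.64, 7.69 and 6.87 CPM in adult, 6.87 and 9.74 CPM in aged and 27.9, 18.5, 15.2 and 13.5 CPM in juvenile ECs. The EAE libraries lay above all adult and aged libraries and within the juvenile range, with a log2 fold change against adult of 1.98 ± 0.25 (adjusted p = 7.77e-05, edgeR), and the call was kept in all 20 alternative settings. After thinning, 189 of 6276 EAE ECs had a Kif23 UMI, and 3.70% of these had a UMI of another mitosis gene or gene of more than one phase, against 5.64% of the other EAE ECs. In juvenile ECs it was 75.0% of 48 cells with a Kif23 UMI against 19.2% of the others. Top2a met another such gene in 78.5% of 107 juvenile ECs with a Top2a UMI, in 1 of 13 such EAE ECs and in none of 4 adult ones, so in EAE the lack of company was not shown to be particular to Kif23. The Kif23 promoter shown above holds the CHR and CCAAT words that most mitosis genes have.

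Plk1, also called higher in EAE ECs, rests on 1 adult UMI and had 0.626 and 0.273 CPM, a ratio of 8.42 (1.20 to 365). Mcm6 was lower, with 16.0 and 16.4 CPM against 27.3, 28.9 and 28.7 CPM in adult ECs (log2 fold change −0.62 ± 0.11, adjusted p = 0.000677, edgeR), and its groups did not overlap. Of all 13810 genes tested in EAE ECs, 4505 lay above every adult library and 3831 below, so such separation was frequent there. The call of Mcm6 was kept in 19 of 20 settings and ended with the near-identical libraries of all 4 conditions summed (adjusted p = 0.2, edgeR).

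Cenpf, a kinetochore protein, was the member lower in EAE PVMs. Of adult PVMs 489 of 541 lay in 1 cluster and of EAE PVMs 481 of 530 in another, so the comparison is in large part one between clusters. It had 30.6 and 33.8 CPM in EAE, 50.4, 56.6 and 76.2 CPM in adult, 45.1 and 30.5 CPM in aged and 81.3, 56.8, 52.7 and 79.9 CPM in juvenile PVMs (log2 fold change −0.74 ± 0.24, adjusted p = 0.0295, edgeR), and the call was kept in 12 of 20 settings. Adult PVMs had a Cenpf UMI in 56 of 541 thinned cells (10.4%), and 10.7% of these had another mitosis gene or gene of more than one phase, against 12.2% of the rest. For Top2a it was 1 of 5 adult PVMs, against 20.5% of the rest, so there this was not shown to be particular to Cenpf. In juvenile PVMs it was 27.3% of 55 cells with Cenpf, against 31.3% of the rest, and 85.7% of 14 cells with Top2a, against 36.2%. The members called higher in EAE PVMs, Mki67, Birc5, Tk1 and Ccna2, had 3, 2, 10 and 1 adult UMIs. The count of members called in EAE PVMs ran from 0 (without EAE 1) to 7 (without Aged 1) when single libraries were left out.

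In choroid plexus epithelium of EAE, Prc1, which bundles microtubules of the central spindle, had 10.1 and 8.21 CPM against 1.43, 1.40 and 1.88 CPM in adult libraries (log2 fold change 2.41 ± 0.36), without overlap. Of all 13134 genes tested there, 3808 lay above every adult library and 4072 below. Of 886 EAE cells 514 lay in a cluster with 279 of 2622 adult cells. The clusters with 1407 and 931 adult cells held 171 and 195 EAE cells, so this is in part a comparison between clusters. Prc1 overlaps Rccd1 and 6330403N20Rik on the opposite strand. Tk1 was higher as well (3.55 and 4.54 CPM, 1.32 ± 0.35), whereas Mcm3 (0.373 and 0.699 CPM against 2.19 to 2.66 CPM, −2.30 ± 0.51), Mcm6 (4.48 and 3.49 CPM against 5.39 to 6.64 CPM) and Pbk, with no UMI in EAE, were lower. Of 16 EAE cells with a Prc1 UMI, 2 had another mitosis gene or gene of more than one phase (12.5%), against 4.598% of the rest.

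**Figure D5:**
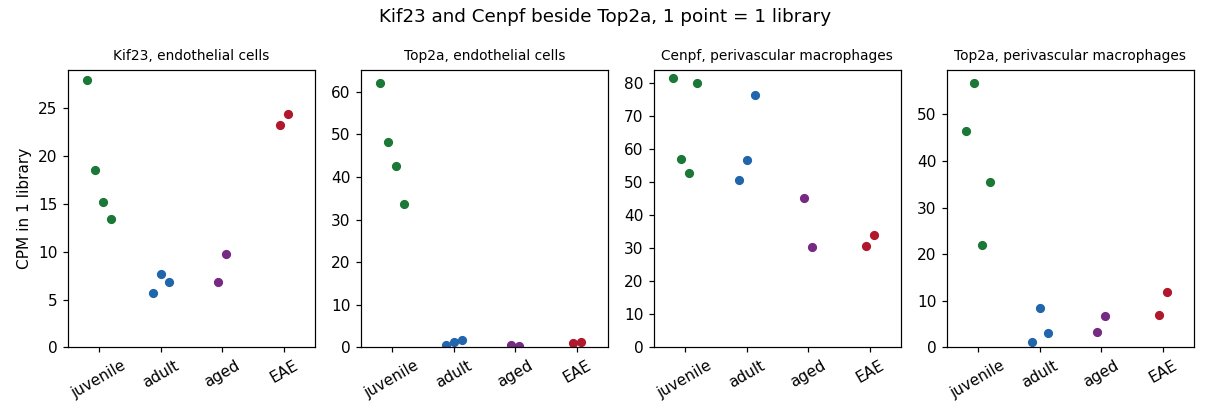
Levels (CPM, y axis) by condition, with 1 point per library, of Kif23 in ECs and Cenpf in PVMs, which departed from their set, each beside Top2a in the same cells. Kif23 in EAE ECs (23.3 and 24.3 CPM) lies above adult ECs (5.64 to 7.69 CPM), whereas Top2a stays at 1.16 and 1.37 CPM.

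In aged libraries few members differed from their adult levels by the test. Aged and adult cells lay in part in different clusters. Of 4992 aged ECs 1922 lay in a cluster with 253 of 4731 adult ECs, and 767 in one with 2260 adult ECs. Of 1016 aged microglia 781 lay in a cluster with 201 of 624 adult microglia. In ECs 1 of 38 members was higher and 1 lower, against 10.2% of all genes tested called, and in microglia 2 were higher, against 2.98%. The median log2 fold change of the members was 0.02 in ECs and, with absent genes at their bound, 0.66 in microglia, against −0.00 and −0.01 over all genes tested. The median of the fitted values in microglia was 1.04, with 0.21 without Aged 1 and 1.62 without Aged 2. Cdk1 was lower in aged ECs (log2 fold change −1.34 ± 0.32, adjusted p = 0.0217, edgeR), a call kept in 15 of 20 settings. Tyms was higher, with 13.6 and 15.0 CPM against 9.86, 8.75 and 10.0 CPM in adult ECs (0.59 ± 0.17, adjusted p = 0.0495, edgeR), a call kept in 3 of 20 settings. In aged microglia Hmmr (5 UMIs in each library, at least 2.62-fold higher than in adult libraries, which had no UMI) and Pbk (17 and 6 UMIs against 1 adult UMI) were called, each in 11 of 20 settings. When single libraries were left out, the count in aged microglia ran from 0 (without any single adult library) to 3 (without Juvenile 1). The count in aged ECs ran from 0 (without Adult 2 or without Adult 3) to 2. No member was called in aged PVMs, choroid plexus epithelium, mural cells or astrocytes, where edgeR called 4.05%, 2.35%, 0.0378% and 0.387% of all genes. At an unadjusted p under 0.05 edgeR had 5, 1, 0 and 3 members in these types, and DESeq2 called 0 in each.

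Genes of the same pathways outside the list were read next, from lists of 33 further mitosis, 25 further replication and 30 cell cycle entry genes, of which 32, 23 and 30 were in the tables. In juvenile ECs 31 of 32 further mitosis genes tested were higher and 1 lower, and 18 of 22 replication genes were higher. Cks1b, a partner of cyclin-dependent kinases, changed by 3.74 ± 0.17 on the log2 scale and the lamin gene Lmnb1 by 2.49 ± 0.12. Of 30 entry genes 10 were higher and 8 lower, where 3288 and 3427 of all 13810 genes tested were higher and lower. Ccnd1 (cyclin D1) was at 98.6 against 23.6 CPM (normalised means of the test) and its partner kinase gene Cdk4 at 235 against 82.8 CPM, whereas Cdkn1a, which encodes the inhibitor p21, was at 261 against 919 CPM.

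Juvenile microglia had 30 of 31 further mitosis and 20 of 21 replication genes higher, with Racgap1, a partner of Kif23 in the central spindle, at 4.27 ± 0.31 and the replicative ligase Lig1 at 2.71 ± 0.27. The mitosis gene that was lower in microglia was Pttg1, which encodes securin (−1.29 ± 0.13). It was lower in juvenile choroid plexus epithelium (−1.31 ± 0.10), mural cells (−1.12 ± 0.16) and Fibro (−1.18 ± 0.23) as well. EAE microglia had 21 of 31 further mitosis genes higher, and 9 of 21 replication genes higher with 1 lower, with 5 of 28 entry genes in each direction, where 1571 and 1553 of all 11200 genes tested were higher and lower. In EAE ECs 6 of 30 entry genes were higher and 6 lower, with a median log2 fold change of 0.05, where 33.0% of all genes tested were called. Cdkn1a was at 1741 against 919 CPM (0.92 ± 0.10) and Cdk6 at 56.8 against 20.3 CPM, whereas Mycn fell by 1.81, Ccnd2 by 1.30 and Ccnd1 by 0.73 on the log2 scale. The background shares given above for these comparisons apply to these lists too.

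Cycling cells were compared with other cells of the same type and library over genes outside the list (edgeR with the library as a block). The choice of cells used UMIs of the same cells, and cycling cells were deeper, with medians of 9693 to 12521 against 4959 to 8018 UMIs in juvenile ECs and 5902 and 6937 against 3143 and 3222 UMIs in EAE T cells. The part of depth in the differences below was not tested. Many cycling cells also lay in clusters of their own (177 of 236 juvenile ECs and 114 of 162 EAE T cells), so these are in part comparisons between clusters. In ECs 15.7% of the genes tested were higher in cycling cells, in microglia 15.1%, in astrocytes 14.1%, in neuron-like cells 20.1%, in T cells 9.66%, in B-lineage cells 8.03%, in MonoMac 4.84% and in mural cells 3.29%. Of the further mitosis genes 30 of 31 were higher in ECs, 30 of 31 in microglia, 31 of 32 in T cells and 21 of 22 in mural cells, and of the further replication genes 22 of 22, 22 of 22, 18 of 21 and 12 of 14.

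In cycling juvenile ECs 1279 of 10245 genes tested were lower than in other ECs. The tight junction gene Cldn5 was at 5633 CPM in cycling and 8548 CPM in other ECs (log2 difference −0.60 ± 0.03), the lipid transporter Mfsd2a at 351 and 750 CPM, the anion transporter Slco1a4 at 202 and 543 CPM and the VEGF receptor Flt1 at 507 and 1150 CPM. In all, 5 of the 6 EC markers used for naming were lower, and Cdh5 did not pass the test (−0.15 ± 0.06). Cdkn1c, which encodes the inhibitor p57, was at 69.9 and 244 CPM and Ccnd1 at 63.2 and 102 CPM. Cycling cells were thus lower in Ccnd1 than other juvenile ECs, while juvenile ECs as a whole were above adult ones.

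Cycling microglia, over 4 juvenile and 2 EAE libraries, were lower in some of the microglia markers, with P2ry12 at 2954 and 4109 CPM, Siglech at 583 and 818 CPM and Tmem119 at 1546 and 1829 CPM. Of the 59 cycling juvenile astrocytes, 36 lay in the cluster shared with neuron-like cells and OPCs, and the other astrocytes lay mostly in the main astrocyte cluster, so this comparison is in large part one between clusters. The cycling cells were lower in all 6 astrocyte markers, with Gfap at 173 and 1508 CPM, Aqp4 at 249 and 1657 CPM and Gja1 at 401 and 2028 CPM. Of all 5687 genes tested there, 919 were lower. The antiproliferative genes Btg1 and Btg2 were lower in cycling ECs, microglia, T cells and MonoMac, with Btg1 at 179 and 343 CPM in microglia and 223 and 463 CPM in T cells. T cells that were cycling had less of the chemokine gene Ccl5, at 1432 and 4809 CPM. Of the T cell markers Cd28 and Cd3d were lower in them, whereas Cd3e, Cd3g, Trac and Trbc2 did not pass the test.

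In 3 further types a few genes were picked after their values were seen, and they stand for no tested group. Juvenile neuron-like cells were cycling in 74 of 153 cases in 1 cluster and in none of 71 in the mature neuron cluster, whose leading genes include Reln and Meg3. Their comparison is thus in large part one between clusters. Cycling neuron-like cells had no UMI of Reln, against 2422 CPM in the others, and 200 CPM of Meg3 against 6737 CPM, whereas Dlx6os1 of the interneuron lineage was at 450 and 230 CPM. The EC gene Cldn5 was at 668 and 107 CPM in them, and its part was not tested. Cycling MonoMac of EAE had 1045 CPM of Mpo, 957 CPM of Ctsg and 3420 CPM of Elane, granule genes of granulocyte and monocyte progenitors, against 0.610, 0.480 and 4.05 CPM in the others, and they had less Cd74, Arg1 and Ms4a4c. Cycling B-lineage cells of the juvenile libraries had less of the B cell gene Ms4a1 than the others, which had 1219 CPM, and 382 CPM of Cd74 against 17000 CPM, and the pre-B-cell gene Vpreb1 was at 940 and 2973 CPM. All 20 juvenile cells of 1 B-lineage cluster were cycling, against 2 of 70 in the other, so this comparison too is largely one between clusters.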

How the data were processed

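Per the labels, the authors demultiplexed reads with bcl2fastq (2.19.1.403), assigned them to cells with UMI-tools (0.5.3), aligned them to mm10 with STAR (2.5.3a) and assigned them to genes with featureCounts (1.6.1). The study's methods name the same aligner and counters in other versions, and those of the labels are given. The deposited values are raw UMI counts of each gene in each barcode, not normalized and not yet filtered on cells. How reads in overlapping genes were counted is not given in the sources used here, so members with overlapping neighbours, such as Prc1, Mki67, Ccna2 and Mcm7, are less certain.

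The study's filter on cells (between 500 and 6000 genes detected, mitochondrial share below 25%) left 50625 of 54646 barcodes. Libraries held 15755504 to 34326349 UMIs. Clustering was done in Seurat 5.3.0 under R 4.3.3, on 30 principal components of the 2000 most variable genes of log values (scale factor 10000), from which 195 cell cycle genes had been removed, and clusters (resolution 1.5) were named from fixed marker lists. Clusters rich in member UMIs that also scored for a further type were named cell by cell from the same lists. The limits for naming were set after the clusters were seen, and rebuilt names can differ from the study's. Scrublet (scanpy 1.11.5, Python 3.11.15) called 818 doublets (1.62%), which were kept, and leaving them out was an alternative. Shares used cells thinned to 1500 UMIs (scipy 1.17.1 for Clopper-Pearson intervals at 95%).

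UMIs were summed per library and cell type with at least 10 cells and tested by the quasi-likelihood test of edgeR 4.0.16 with robust fitting, TMM factors and the filterByExpr filter, 1 fit per cell type over all 11 libraries. A Benjamini-Hochberg adjusted p below 0.05 was the threshold for a call. The analysis was tested on simulated data. CPM per library are counts over the plain total of the cell type in that library. Where both groups had counts but the adult group had 1 to 3, the ratio with its exact 95% interval is given, and a count of 0 was set at 3 counts over the group. Alternatives were DESeq2 1.42.0, other size factors, no filter, other limits and depths, other clusterings and names, summed near-identical libraries, a replicate block and leaving out each library. The members, the gene lists and the tests were chosen with earlier results of these data known. Named with values were the 3 most abundant members of each set, up to 8 called members per comparison by adjusted p, those called against the majority, and up to 6 called genes of the other lists.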

Additional observations from a re-analysis of the deposited data

Results flagged for a closer look

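In groups of 4 libraries, 81 values of the members were examined for a library far from the others by Dixon's criterion, which marks about 1 in 20 such groups by chance. Cdc20 in juvenile ECs was marked because Juvenile 1 had 75.8 CPM, against 34.2 to 37.9 CPM in the other juvenile libraries. Mcm6 in juvenile astrocytes was marked because Juvenile 2 had 27.3 CPM, against 42.7 to 43.3 CPM. The log2 ratio of S-phase over mitosis UMIs in juvenile mural cells was marked because Juvenile 1 had 0.092, against −0.98 to −0.81.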

How the results depend on the processing

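The order of juvenile and adult libraries was not compared under the alternatives below. The level of the share of cycling cells depended on the limit and the depth. With at least 2 UMIs it was 18.0% in juvenile ECs, 27.8% in juvenile and 8.53% in EAE microglia, 17.5% in juvenile mural cells, 15.7% in juvenile astrocytes and 22.4% in EAE T cells. With at least 6 UMIs it was 10.8%, 3.35%, 5.51%, 6.07% and 8.28% in the same order from juvenile microglia on. At a depth of 2500 UMIs it was 23.5%, 4.58%, 11.9%, 10.2% and 16.4%, and at 1000 UMIs it was 3.90% in EAE microglia, 6.73% in juvenile mural cells and 5.86% in juvenile astrocytes. With cells named by marker score it was 3.68% in EAE microglia and 4.99% in juvenile astrocytes, and with 12 principal components and resolution 0.5 it was 4.43% in EAE microglia. Without the cluster that EAE microglia share with MonoMac it was 0.616%, an alternative added after seeing the data.

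With the genes of more than one phase counted with mitosis, the log2 ratio of S-phase over mitosis UMIs was −0.71 in juvenile and 1.95 in adult ECs, −0.87 in juvenile and −0.66 in EAE microglia, 1.57 in adult choroid plexus epithelium and −1.07 in EAE T cells. Without Mcm2 to Mcm7 and Pcna it was −1.83, −0.30, −2.02, −1.86, −0.011 and −2.13, so that adult ECs and adult choroid plexus epithelium changed sign, as their S-phase UMIs were mostly of those genes.

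The counts of members called in juvenile ECs, microglia, PVMs and choroid plexus epithelium and in EAE microglia stayed within 1.5 times their value under every setting run. For aged ECs 1 member was called with relative log expression factors, DESeq2, juvenile and adult near-identical libraries summed, doublets left out, naming by marker score or 12 principal components, and 0 with the near-identical libraries of all 4 conditions summed (chosen after seeing the data). The latter gave 1 for EAE ECs, 0 for aged microglia, 2 for EAE PVMs and 3 for EAE choroid plexus epithelium. Marker scores gave 7 for EAE ECs, 1 for aged microglia and 8 for juvenile astrocytes. DESeq2 gave 1 for aged microglia, 2 for EAE PVMs and 8 for juvenile astrocytes. Without a filter 4, 1, 12 and 32 were called in aged microglia, aged PVMs, EAE PVMs and juvenile mural cells, where more genes were tested. Summed nearest libraries gave 0 for aged microglia, and 12 principal components gave 3 for EAE PVMs. Leaving out single libraries gave 0 to 2 for aged and 2 to 6 for EAE ECs, 0 to 3 for aged microglia, 0 to 1 for aged and 0 to 7 for EAE PVMs, 2 to 6 for EAE choroid plexus epithelium, 5 to 19 for juvenile mural cells and 1 to 21 for juvenile astrocytes. Members tested changed too in juvenile mural cells, with 5 of 8 called without Juvenile 2 and 9 of 12 without Juvenile 4, against 15 of 18 with all libraries. In juvenile astrocytes 8 of 12 were called with marker scores and 1 of 24 without Adult 1, against 16 of 24. The cause of the changes in these counts was not tested. Keeping all 11 libraries separate was the same as the analysis reported, as libraries were joined only where their difference was within 1.1 times that of random divisions in both ECs and microglia. Adult 2 and 3 were within it in microglia (1.02) but not in ECs (1.19).

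For libraries of different conditions with the same replicate number, deviations from the condition mean had correlations of −0.165 to 0.0874 in ECs. In microglia they were −0.0659 to 0.0837 and in mural cells −0.117 to 0.195. Libraries with other numbers spanned −0.101 to 0.165, −0.120 to 0.119 and −0.240 to 0.254 in the same order. In conditions of 2 libraries the deviations are opposite by construction, so these values do not settle whether the numbers pair the libraries. With a replicate block 38 members were called in juvenile ECs, 1 in aged and 3 in EAE ECs, 30 in EAE microglia and 3 in EAE PVMs.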
